A study of Homo sapiens with 9 samples.

Results

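A small part of the Ago-HITS-CLIP peaks of the miR-342 strands lay in introns, and these 308 intron peaks, of 8460 peaks in both lists, are described here. A peak was counted as intronic when its midpoint lay on the same strand within an annotated gene and in no exon of any annotated transcript of that strand. Introns thus held 119 of the 3450 peaks in the miR-342-3p list and 189 of the 5010 in the miR-342-5p list. The peaks were made by the authors from MDA-MB-231HM cells, a highly metastatic variant of a human triple-negative breast cancer line, transfected for 48 h with 20 nM of a miR-342-3p mimic, a miR-342-5p mimic or a negative control mimic, with 3 libraries for each of these groups and 9 in all. A mimic is a synthetic miRNA duplex that loads Argonaute (Ago) with a chosen strand at levels above those of the cell, and each mimic was compared with the same negative control libraries. In HITS-CLIP, RNA bound by Ago is fixed to it with UV light and pulled down with an antibody, and the protected fragments are sequenced. The score of a peak is described by the authors as reads above background and was at least 5. The lists merge the libraries, so no value per library, replicate error or depth is known from them. The tests and the 95% Wilson confidence intervals (CI) below treat peaks as independent and cover counting error only.

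Introns are removed from the transcript in the nucleus, mostly while it is still being made, and the excised RNA is usually degraded quickly. Ago acts mainly in the cytoplasm on spliced mRNA, although nuclear Ago and binding to introns have been described, and a transcript that keeps an intron can carry it into the cytoplasm. A miRNA finds its targets mainly through its seed, the bases from position 2 to 8. The 8mer site pairs with the whole seed and has an A opposite the first base of the miRNA, and the 7mers lack either that A or the outermost seed pair. The mature strands of miR-342, from RefSeq (GRCh38.p14), are shown with the seed in capitals, because every site below is read against them.
miR-342-3p: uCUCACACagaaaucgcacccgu
miR-342-5p: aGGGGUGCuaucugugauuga

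The 8mer searched was GUGUGAGA for miR-342-3p and GCACCCCA for miR-342-5p. The 7mers were GUGUGAG and UGUGAGA for miR-342-3p and GCACCCC and CACCCCA for miR-342-5p. They were searched within 50 nt of the summit, on the strand of the peak. Examples from intron peaks with a site, chosen after their scores were seen, are given from the GRCh37 genome (hg19), with the sites in capitals. They come from the introns of SMAD3, a transducer of TGF-β signals, CMIP, a signalling adaptor, and MTX2, a protein of the mitochondrial outer membrane, for miR-342-3p. For miR-342-5p they come from NTM, a cell adhesion protein, DAZAP1, an RNA-binding protein, and MBD3, a subunit of the NuRD chromatin complex.
SMAD3, miR-342-3p, plus strand, chr15:67358809-67358856: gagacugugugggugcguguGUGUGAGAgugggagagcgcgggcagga
CMIP, miR-342-3p, plus strand, chr16:81659780-81659827: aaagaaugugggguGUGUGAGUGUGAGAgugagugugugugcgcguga
MTX2, miR-342-3p, plus strand, chr2:177144591-177144638: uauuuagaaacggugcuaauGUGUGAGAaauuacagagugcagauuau
NTM, miR-342-5p, plus strand, chr11:131269018-131269065: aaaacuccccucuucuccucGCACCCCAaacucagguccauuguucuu
DAZAP1, miR-342-5p, plus strand, chr19:1422533-1422580: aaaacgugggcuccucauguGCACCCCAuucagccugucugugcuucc
MBD3, miR-342-5p, minus strand, chr19:1586445-1586492: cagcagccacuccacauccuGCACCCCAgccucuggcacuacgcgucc

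The share of peaks in introns did not differ detectably between the lists. It was 3.45% for miR-342-3p (CI 2.89–4.11%) and 3.81% for miR-342-5p (CI 3.31–4.38%) of the peaks outside the mitochondrial chromosome, which held 47 miR-342-5p peaks that were not placed. They were 0.359 percentage points apart (Fisher's exact test, two-sided, p = 0.409, adjusted p = 0.483, Benjamini-Hochberg over the 13 comparisons made here). With basic transcripts alone as the annotation, it was 1.16 percentage points (same exact test, p = 0.0105), and with only the highest-scored peak of each gene it was 1.61 percentage points (exact test, p = 0.00465). Exons held 3236 and 4670 peaks of the lists, and 95 and 104 peaks fell outside any gene of their strand. The host gene was protein coding for 106 of the miR-342-3p intron peaks and 181 of the miR-342-5p intron peaks, and a long non-coding RNA for 12 and 7. Where several genes spanned the midpoint, a protein-coding gene was taken as the host first, which favours that kind in these numbers. Introns here and below are those of the host transcript with the narrowest intron at the midpoint. Their numbers can therefore differ from those of the main transcript of the gene. Counted in this way, a first intron held 44 of the miR-342-3p and 69 of the miR-342-5p intron peaks.

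Intron peaks carried the seed match of the transfected strand far more often than exon peaks did. In the miR-342-3p list, 64 of 119 intron peaks (53.8%, CI 44.8–62.5%) carried such a 7mer or 8mer near the summit, compared with 629 of 3236 exon peaks (19.4%, CI 18.1–20.8%) and 20.6% of all nuclear peaks of that list. Intron and exon peaks were 34.3 percentage points apart, and the odds ratio was 4.82 (Fisher's exact test, two-sided, p = 4.4e-16, adjusted p = 9.6e-16). For miR-342-5p, 154 of 189 intron peaks (81.5%, CI 75.3–86.4%) had a site, compared with 1465 of 4670 exon peaks (31.4%, CI 30.1–32.7%) and 33.2% of all nuclear peaks of that list. Here the gap was 50.1 percentage points and the odds ratio 9.63 (same exact test, p = 7.1e-44, adjusted p = 9.2e-43). Among the exon peaks, placed on basic transcripts, the shares were 23.5% and 43.0% in 3′UTRs and 16.3% and 27.4% in coding exons. An 8mer was present in 35 miR-342-3p intron peaks (29.4%) and in 93 miR-342-5p intron peaks (49.2%), whereas 7.29% and 7.39% of exon peaks had one. The site lay wholly inside the host intron in 63 of the 64 miR-342-3p and 150 of the 154 miR-342-5p intron peaks with a site. The call was lost for peaks with a score above 50, of which introns held 6 and 9. In these, 0 miR-342-3p and 3 miR-342-5p peaks had a site. Of the latter sites, only that of NTM lay wholly inside the host intron.

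**Figure D1:**
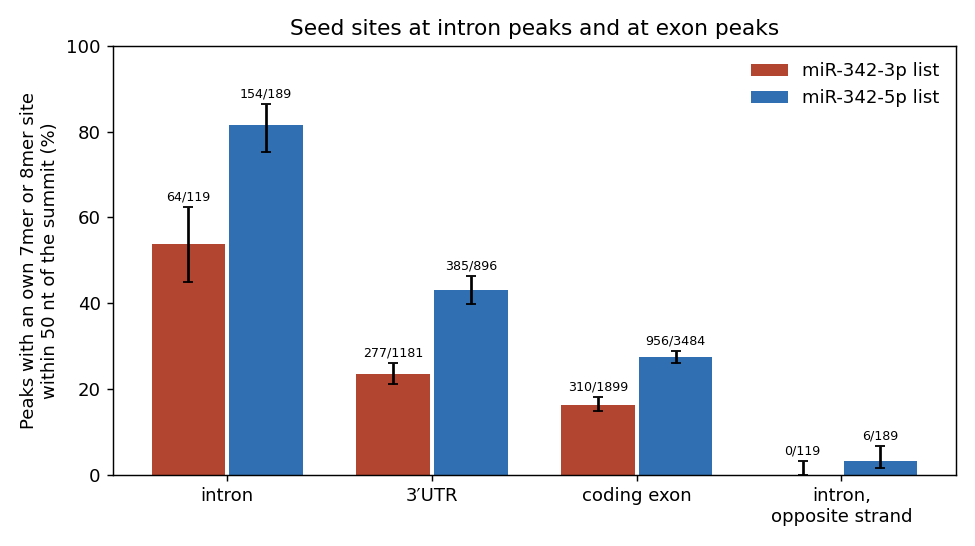
Share of peaks, in percent, with a 7mer or 8mer site of the transfected strand within 50 nt of the summit, for intron peaks, 3′UTR peaks, coding exon peaks and the opposite strand of the intron peaks (bars, with 95% Wilson intervals and the numbers of peaks). The intron bars, 53.8% and 81.5%, stand above those of 3′UTRs and coding exons in both lists.

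The sites were on the strand of the peak. When these windows were read on the opposite strand, 0 of 119 miR-342-3p intron peaks (CI up to 3.13%) and 6 of 189 miR-342-5p intron peaks (3.17%) had a site. The differences between strands were 53.8 percentage points (exact McNemar test, p = 1.1e-19, adjusted p = 2.8e-19) and 78.3 percentage points (exact McNemar test, p = 5.3e-40, adjusted p = 3.5e-39). The best site lay a median of 7 nt from the summit for miR-342-3p and 6 nt for miR-342-5p, and within 10 nt in 41 and 129 peaks. In bins of 20 nt, the bin just 3′ of the summit held 48 and 95 sites of the lists, the most of any bin within 500 nt, and the bin just 5′ of it held 29 and 74. A site of the mimic that was not transfected was present in 1 intron peak of each list.

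**Figure D2:**
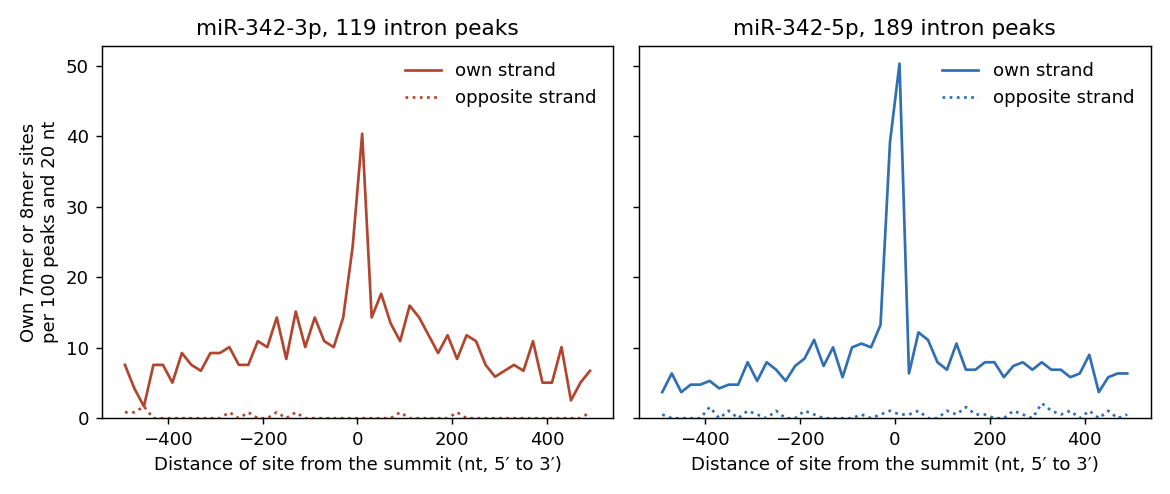
Number of 7mer and 8mer sites per 100 intron peaks in bins of 20 nt, against the distance from the summit in the direction of transcription, on the strand of the peak (solid) and the opposite strand (dotted), for miR-342-3p (left) and miR-342-5p (right). The lines peak at the summit on the strand of the peak in both lists, and the opposite strand stays near 0.

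The introns of bound genes held many more sites than peaks. In the 2317 protein-coding genes with a miR-342-3p peak anywhere, the introns contained 35660 miR-342-3p sites of 7 or 8 nt, of which 123 (0.345%, CI 0.289–0.411%) lay wholly in a peak. Of 3441 sites in the exons of these genes, 616 (17.9%) lay in a peak. For miR-342-5p, 237 of 17168 intron sites (1.38%, CI 1.22–1.57%) and 1498 of 4244 exon sites (35.3%) in 2342 genes lay in a peak. The genes were picked for holding a peak, mostly in exons, so these shares are given without a test. How much intron RNA was present in the cells was not measured here.

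The lists differed in how many intron peaks had a site. The share was higher for miR-342-5p by 27.7 percentage points, an odds ratio of 3.78 (Fisher's exact test, two-sided, p = 3.6e-07, adjusted p = 6.7e-07). Among the intron peaks without a 7mer or 8mer, 2 of the miR-342-3p and 6 of the miR-342-5p list had the 6mer common to both 7mers, and 53 and 29 had no match at all.

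Intron peaks of miR-342-3p often lay at an alternating GU run, a sequence that resembles the miR-342-3p site, since GUGUGAG begins with the same alternation. A GU run of at least 12 nt was within 50 nt of the summit in 47 of 119 miR-342-3p intron peaks (39.5%, CI 31.2–48.5%). It was present in 242 of 3236 miR-342-3p exon peaks (7.48%) and 10.3% of all nuclear miR-342-3p peaks, so that introns exceeded exons by 32.0 percentage points (Fisher's exact test, two-sided, p = 3.8e-21, adjusted p = 1.2e-20). In the miR-342-5p list, 1 of 189 intron peaks (0.529%) had such a run, where all nuclear peaks gave 0.101%, and the difference between lists was 39.0 percentage points (same exact test, p = 1.4e-21, adjusted p = 6.1e-21). GUGUGUG was the commonest 7 nt word in the miR-342-3p intron windows, in 90 of 119 (0 on the opposite strand), ahead of UGUGUGU in 86, UGUGUGA in 71 and the seed match GUGUGAG in 63. Around the miR-342-5p summits, GCACCCC, a seed match, came first, in 147 of 189 (3 on the opposite strand), followed by UGCACCC in 102 and CACCCCA in 100.

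A site and a GU run were both present in 28 miR-342-3p intron peaks, a site alone in 36, a GU run alone in 19, and neither in 36. The scores of these classes overlapped, with medians of 15, 13.5 and 14 for both, site alone and GU run alone. KRBA2, a KRAB-domain gene, had a GU run without a site, with a score of 41. The 31 nt around its summit occurred 85 times in the genome, so its reads cannot be placed there with certainty. RBPJ, the transcription factor of the Notch pathway, had a 7mer site that ran directly into GU repeats. Both are shown, KRBA2 for a GU run alone and RBPJ for a site and a GU run together, with the GU run of KRBA2 and the site of RBPJ in capitals.
KRBA2, minus strand, chr17:8262050-8262106: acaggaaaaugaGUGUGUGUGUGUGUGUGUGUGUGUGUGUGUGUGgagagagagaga
RBPJ, plus strand, chr4:26325998-26326044: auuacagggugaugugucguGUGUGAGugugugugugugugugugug

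The RBPJ peak (intron 1, score 22) had its site 2 nt from the summit and the longest GU run there was 25 nt. Around the summit, 31 nt of sequence occurred more than once in the genome for 25 miR-342-3p intron peaks (21.0%), of which 21 were at a GU run. This was the case for 6.83% of miR-342-3p exon peaks and 2.65% of miR-342-5p intron peaks. Reads from such places cannot be assigned to 1 position with certainty, and the part of this in the results was not tested. GU runs also read as CA runs on the other strand, and 9 miR-342-3p intron peaks lay opposite to an annotated 3′UTR, 8 of them at a GU run, as against 1 miR-342-5p intron peak.

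Several host genes had clusters of intron peaks over arrays of repeated seed sites. In the miR-342-3p list, 8 genes had 3 or more intron peaks and together held 35 of the 119, and in the miR-342-5p list 9 genes held 45 of the 189. More than 1 site lay around the summit in 30 miR-342-3p intron peaks (25.2%) and 33 miR-342-5p intron peaks (17.5%), compared with 0.711% and 1.63% of exon peaks. Windows around a summit in the arrays are shown for EVI5L and RGS12, regulators of Rab and G-protein signalling, and for RASA3 and TSPAN4, a Ras GTPase-activating protein and a tetraspanin, with the sites in capitals.
EVI5L, miR-342-3p, plus strand, chr19:7908288-7908388: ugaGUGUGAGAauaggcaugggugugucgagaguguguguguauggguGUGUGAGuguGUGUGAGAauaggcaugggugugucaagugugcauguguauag
RGS12, miR-342-3p, plus strand, chr4:3364398-3364498: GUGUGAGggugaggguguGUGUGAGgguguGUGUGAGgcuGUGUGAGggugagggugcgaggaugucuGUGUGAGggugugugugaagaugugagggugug
RASA3, miR-342-5p, minus strand, chr13:114882459-114882559: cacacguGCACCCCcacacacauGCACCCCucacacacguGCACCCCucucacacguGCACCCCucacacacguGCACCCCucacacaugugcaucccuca
TSPAN4, miR-342-5p, plus strand, chr11:859420-859520: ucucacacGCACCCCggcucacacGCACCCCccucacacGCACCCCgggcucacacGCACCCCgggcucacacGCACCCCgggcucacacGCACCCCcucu

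INPP5A, an inositol polyphosphate phosphatase, had the most miR-342-3p intron peaks, 9 in intron 11 over 1620 nt with 23 sites and scores from 6 to 23. EVI5L had 6 peaks in intron 1 over 646 nt with 16 sites, 10 of them 8mers, and RGS12 had 5 peaks, 4 of which lay over 682 nt with 22 sites. In ACTN1, which encodes α-actinin, 3 peaks in intron 9 covered 621 nt with 13 sites, none of them an 8mer. CMIP, HDAC4, the cadherin gene CDH4 and the receptor tyrosine kinase gene AXL had 3 peaks each. A site was present in all 3 for CMIP and AXL, in 2 for CDH4 and in 1 for HDAC4, whose cluster held 1 site. In INPP5A and RGS12 it was present in 8 of 9 and 3 of 5 peaks. For miR-342-5p, TSPAN4 had 8 peaks in intron 3 over 1217 nt with 43 sites, and RASA3 had 7 peaks in intron 1 over 1327 nt with 37 sites, all of them 7mers. ARHGEF10 had 8 peaks in intron 1 over 1188 nt with 35 sites, 26 of them 8mers. The commonest spacing of neighbouring sites was 16 nt in TSPAN4 (11 of 42 spacings), 17 nt in RASA3 (14 of 36) and 19 nt in ARHGEF10 (10 of 34). All 23 peaks of TSPAN4, RASA3 and ARHGEF10 had a site around the summit. NTM had 5 miR-342-5p intron peaks with a site each, but these were spread over large introns and no cluster was formed. Among the other hosts of 3 or more miR-342-5p intron peaks, HMGA2, a chromatin architectural protein, had a site in 3 of 3, ANKRD11 in 3 of 4, and PHKB and ANKRD30BL in 0 of 4 and 0 of 3. With only the highest-scored peak of each gene kept, the differences between intron and exon peaks in the share with a site kept their direction and their call. They were smaller, however, at 22.3 instead of 34.3 percentage points for miR-342-3p (29 of 66 intron and 482 of 2227 exon peaks). For miR-342-5p they were 33.2 instead of 50.1 percentage points (81 of 103 intron and 997 of 2194 exon peaks).

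**Figure D3:**
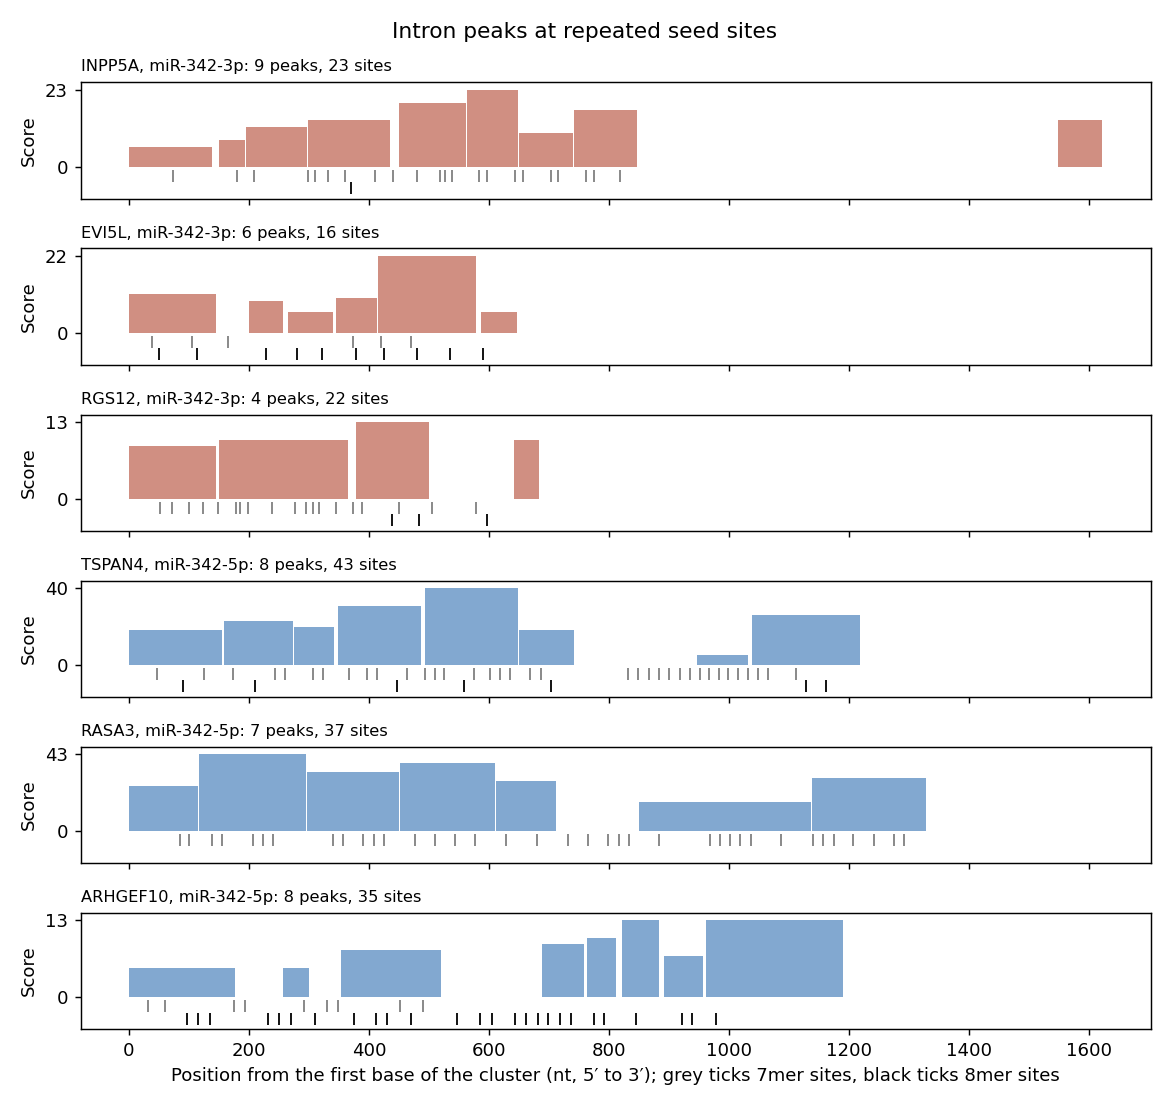
Peaks (bars, height is the score, width is the peak) and seed sites (ticks, 7mers in grey and 8mers in black) in the intron clusters of INPP5A, EVI5L and RGS12 (miR-342-3p) and TSPAN4, RASA3 and ARHGEF10 (miR-342-5p), against the position in nt from the first base of the cluster. Peaks follow each other along the arrays of 16 to 43 sites.

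Beyond the seed, few intron peaks matched the full complement of the mature strand within 5 edits. The best match to the full complement in the miR-342-3p windows was in LPXN, which encodes the adaptor leupaxin, with 5 edits and no seed site, and a score of 26. For miR-342-5p the best were repeats of RASA3, with 4 edits. The bases that match the complement are in capitals.
LPXN, miR-342-3p, minus strand, chr11:58316816-58316845: gugcAGuGGUGCGAUcUCUGGUGcGAucuc
RASA3, miR-342-5p, minus strand, chr13:114882966-114882995: augcUCAccCACAGAUguGCACCCCUcacg
At most 5 edits were needed for 1 miR-342-3p (0.84%) and 10 miR-342-5p intron peaks (5.29%). With 6 edits allowed, the numbers were 23 (19.3%) and 38 (20.1%). The share among exon peaks was not counted, so these numbers have no reference.

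Scores of intron peaks were lower than those of exon peaks. The median was 15 for miR-342-3p intron peaks (quartiles 11 and 21) and 25 for exon peaks, a difference in mean log2 score of -0.82 (two-sided permutation test with 100000 resamples, p = 1.0e-05, adjusted p = 1.6e-05, the lowest unadjusted p that so many resamples allow). For miR-342-5p the medians were 14 (quartiles 10 and 23) and 19, a difference of -0.42 (same permutation test, p = 2.0e-05, adjusted p = 2.9e-05). The median width was 69 and 66 nt in introns and 65 and 79 nt in exons. The GC content around the summit had medians of 50.5% in introns and 49.5% in exons for miR-342-3p, and of 55.4% and 59.4% for miR-342-5p.

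The highest scores in introns belonged mostly to peaks without a seed site. In the miR-342-3p list, intron peaks with a site scored from 6 to 39, and the 9 highest-scored intron peaks had none. These were in FLNA (240), ITGA3 (231), BRD7 (183), NAAA (104), LINC02210-CRHR1 (67), CTTN (51), EXT1 (43), KRBA2 (41) and PPARG (40), and SMAD3 (39) came next with its 8mer. The 31 nt around the summit occurred 9 times in the genome for EXT1 and 85 times for KRBA2. Reads of these peaks cannot be placed there with certainty. FLNA, ITGA3 and CTTN encode filamin A, integrin α3 and cortactin, proteins of the actin cytoskeleton and cell adhesion, and their peaks reached into an exon. In the miR-342-5p list, the 10 highest were NOTCH2NLA (344), TACC2 (271), NCAPD2 (127), ARID1A (88), PHKB (88), AARS1 (85), PARP8 (83), NTM (74), a further PHKB peak (66) and PPIE (50). Of these, ARID1A and AARS1 had a 7mer that was not wholly inside the host intron, and NTM had an 8mer that was. After these, the highest scores with a site were 49 in DAZAP1, 48 in MBD3, 45 in TNKS1BP1, 45 in ZGPAT, 44 in CMIP, 43 in RASA3 and 40 in TSPAN4.

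**Figure D4:**
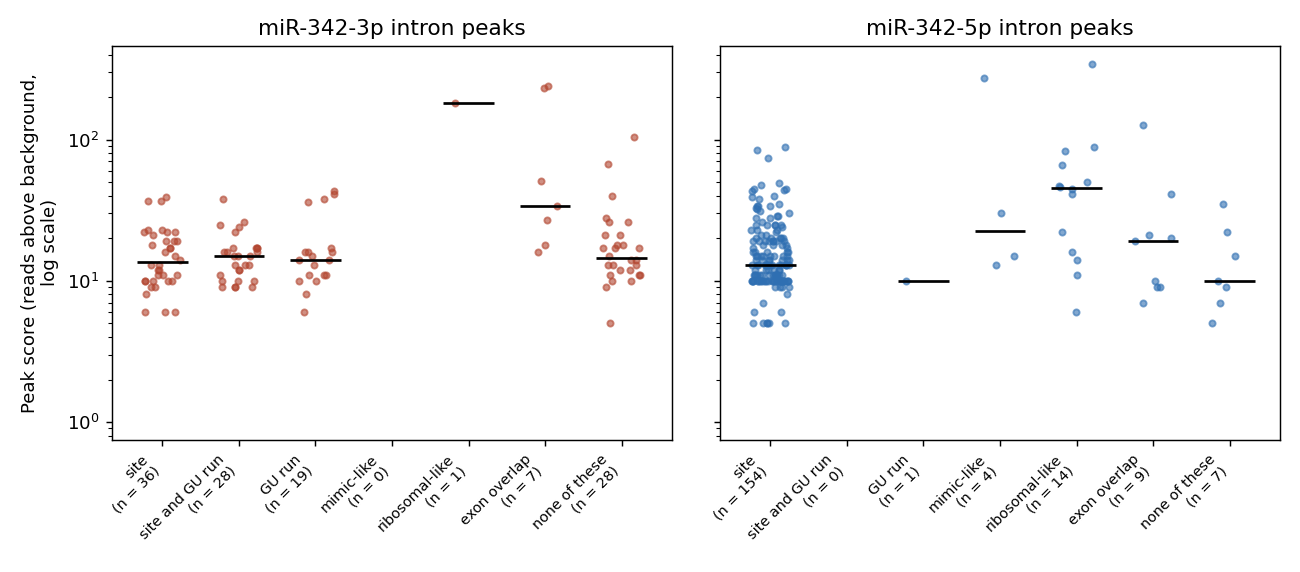
Score of each intron peak (points, log scale) by what its sequence or position holds, for miR-342-3p (left) and miR-342-5p (right). The line is the class median. A peak with a site and a GU run is in the class for both, and every other peak is in the leftmost class that applies. The highest scores are in the classes without a site, up to 240 and 344, while peaks with a site reach 39 and 88.

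Among the 35 miR-342-5p intron peaks without a site, some resembled the mimic itself. The sequence around the summit matched the mature miR-342-5p strand, not its complement, with at most 4 edits in 4 peaks, compared with 2 of 4670 exon peaks and 16 of 104 peaks without a gene of that list. The limit of 4 edits was set after the values were seen. They lay in TACC2 (score 271, 23 nt wide), SYNE4 (30), GPR19 (15) and ZIC4 (13). The bases that match the mature strand are in capitals.
TACC2, plus strand, chr10:123980080-123980111: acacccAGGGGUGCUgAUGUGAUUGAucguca
SYNE4, minus strand, chr19:36498201-36498231: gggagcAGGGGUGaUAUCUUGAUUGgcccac
GPR19, minus strand, chr12:12836789-12836817: ggaaccAGGGGUGCUUGUGAUUGuuccca
ZIC4, minus strand, chr3:147108590-147108620: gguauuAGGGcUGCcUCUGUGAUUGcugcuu

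A further 14 miR-342-5p intron peaks (7.41%) resembled ribosomal DNA, with at least 85% identity to it over the peak or its central 31 nt, a limit that was also set after the values were seen. This was the case for 16 of 4670 exon peaks (0.343%) and 11 of 104 peaks without a gene of that list, and for 1 of 119 miR-342-3p intron peaks, the one in BRD7 (87.0%, 23 nt wide). They included the highest-scored miR-342-5p intron peak, in NOTCH2NLA (90.3%), 4 adjoining peaks in PHKB with scores from 6 to 88, 3 in ANKRD30BL with scores from 14 to 46, PARP8 (83) and PPIE (50). Stretches of PHKB and PARP8 are shown with the bases that match ribosomal DNA in capitals.
PHKB, plus strand, chr16:47539235-47539265: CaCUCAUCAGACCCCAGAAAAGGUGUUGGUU
PARP8, plus strand, chr5:50081215-50081236: ACGCAGUUUUcUCCGGUAAAGg
The identity of the other intron peaks to ribosomal DNA was mostly far lower, and the median over all miR-342-5p intron peaks was 67.7%. Where the reads under these peaks came from was not tested. Of the 35 peaks without a site, 9 more reached into an exon, 1 was at a GU run, in PAK2, and 7 had none of these features. PAK2 is named after its values were seen. Without the mimic-like and ribosomal-like intron peaks, the difference between the lists in the share of peaks in introns was 0.0368 percentage points (Fisher's exact test, two-sided, p = 0.952). In the same setting, 154 of 171 miR-342-5p intron peaks had a site, 58.7 percentage points above exon peaks. Exon peaks of these kinds were kept, and the miR-342-5p intron peaks left out all lacked a site. That gap therefore had to widen, and it adds nothing to the difference given above.

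The distance to exons did not differ detectably between the lists. The midpoint lay a median of 1630 nt from the nearest exon for miR-342-3p (quartiles 419 and 4787) and 1256 nt for miR-342-5p (quartiles 227 and 4082). The difference in mean log10 distance was -0.11 (two-sided permutation test with 100000 resamples, p = 0.326, adjusted p = 0.424). Within 100 nt of an exon were 15 of the 119 (12.6%) and 35 of the 189 peaks (18.5%), and over 10000 nt away 15 (12.6%) and 20 (10.6%). The median was 2632 and 1588 nt for peaks with a site and 623 and 226 nt for peaks without, and this was not tested. The upstream exon was the nearer one for 75 of the 119 (63.0%, CI 54.1–71.2%) and 92 of the 189 (48.7%, CI 41.6–55.8%), which was also not tested.

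**Figure D5:**
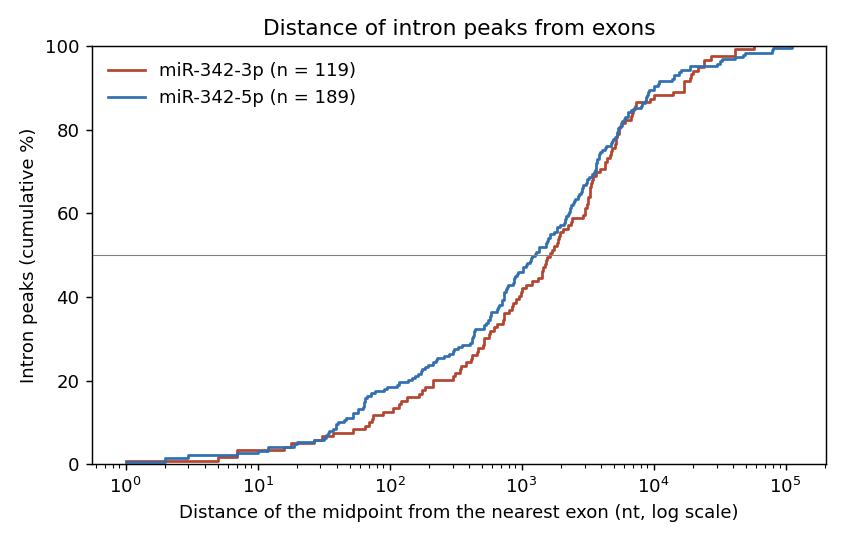
Cumulative share of intron peaks, in percent, against the distance of the midpoint from the nearest exon in nt on a log scale, for the 119 miR-342-3p and the 189 miR-342-5p peaks. The curves cross the 50% line at 1630 and 1256 nt and overlap at both ends.

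Some of the farthest peaks had good sites. In MAML3, a Notch coactivator, an 8mer peak of miR-342-5p with a score of 13 lay 112242 nt from the nearest exon, the farthest of all, and NTM peaks lay up to 80971 nt away. EXT1, which encodes a heparan sulfate polymerase, had a miR-342-5p peak 78647 nt from an exon with a 7mer. For miR-342-3p, the farthest were a CDH4 peak 57283 nt from an exon without a site and further CDH4 peaks at 41374 and 41240 nt, both with an 8mer. NMT1, at 27295 nt, had a GU run of 53 nt and no site, and CMIP, at 24163 nt, an 8mer.

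Intron peaks at exon borders or in short introns, the candidates for retained introns, did not differ detectably in frequency between the lists. A candidate was a peak that overlapped an exon by at least 1 nt or lay in an intron of at most 500 nt. There were 11 of 119 in the miR-342-3p list (9.24%, CI 5.24–15.8%) and 20 of 189 in the miR-342-5p list (10.6%, CI 6.96–15.8%), 1.34 percentage points apart (Fisher's exact test, two-sided, p = 0.846, adjusted p = 0.846). With basic transcripts alone, 23 of 126 and 76 of 239 were candidates, and the lists were 13.5 percentage points apart (same exact test, p = 0.00632). An exon was overlapped in 8 and 16 peaks, and 1 and 7 of these had a site. The exon nearer to the midpoint was the upstream one in 7 of the 8 for miR-342-3p and in 9 of the 16 for miR-342-5p. A peak that covers a whole intron can reach both exons, so this does not say which exons were overlapped.

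A whole intron was covered by 2 miR-342-3p and 5 miR-342-5p peaks. For miR-342-3p these were FLNA intron 8 (83 nt, score 240) and GHDC intron 7 (74 nt, score 34). For miR-342-5p they were intron 19 of NCAPD2, a condensin subunit (86 nt, score 127), intron 16 of ARID1A, a SWI/SNF subunit (84 nt, score 88), intron 24 of SUPT5H, an elongation factor (85 nt, score 41), intron 11 of KDM6B, a histone demethylase (93 nt, score 19), and PCNX3 intron 33 (83 nt, score 9). The FLNA and ARID1A introns are shown, in capitals between the ends of their exons, as examples of introns covered whole. Neither intron holds a site of its own strand, and the 7mer of the ARID1A peak is in the exon that follows.
FLNA intron 8, minus strand, chrX:153594578-153594690: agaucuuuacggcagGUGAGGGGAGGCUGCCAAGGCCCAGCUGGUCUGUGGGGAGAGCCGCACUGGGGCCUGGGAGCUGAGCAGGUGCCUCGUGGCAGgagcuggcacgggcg
ARID1A intron 16, plus strand, chr1:27100194-27100307: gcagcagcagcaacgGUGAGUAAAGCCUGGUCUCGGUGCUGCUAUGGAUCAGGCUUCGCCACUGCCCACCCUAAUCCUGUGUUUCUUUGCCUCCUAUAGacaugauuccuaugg
The mapping program splits reads over splice junctions, and how the peak caller treated the skipped bases is not given in the sources used here. A peak that spans an intron can therefore hold spliced reads, and retained and spliced transcripts cannot be told apart in these lists.

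The other peaks that reached into an exon scored from 7 to 231. ITGA3 had the highest of these for miR-342-3p, with its midpoint 1 nt past the end of an exon, followed by CTTN (51), RRBP1 (27), LOXL2 (18) and ITPR3 (16). AARS1, which encodes alanyl-tRNA synthetase, had the highest for miR-342-5p (85), and ANKRD11 (34) had an 8mer. Peaks in exons of transcripts annotated as retained introns were not counted as intronic. With basic transcripts alone, 13 miR-342-3p and 56 miR-342-5p exon peaks would lie in an intron, and for 6 and 24 of these, retained-intron transcripts were the only ones with an exon there. The highest of the latter were in GAPDH, with scores of 1765 and 618, and CCN1, with a score of 867. GAPDH, CCN1 and ITPR3 are named after their values were seen.

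The 119 miR-342-3p intron peaks lay in 87 host genes and the 189 miR-342-5p intron peaks in 140. An exon peak of the same list was present in 30 of the 87 (34.5%, CI 25.3–44.9%) and 56 of the 140 hosts (40%, CI 32.3–48.3%), 5.52 percentage points apart (Fisher's exact test, two-sided, p = 0.482, adjusted p = 0.522). An intron peak was thus the only kind of peak in 57 and 84 host genes. Intron peaks of both lists were present in 10 genes, which is 11.5% of the miR-342-3p hosts and 7.14% of the miR-342-5p hosts. These were AXL, CAPN2, CDH4, CMIP, EXT1, ITGA3, NTM, POLDIP3, TNS3 and ZGPAT, all of which are named here with their values already seen. A peak of any kind in the other list was present in 32 miR-342-3p hosts (36.8%) and 49 miR-342-5p hosts (35%). The overlap over all genes with a peak was not counted, so the 10 cannot be called few or many.

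At the level of peaks, POLDIP3, a factor of mRNA export and translation, was the only gene with overlapping intron peaks. The same 50 nt (chr22:43006493-43006542, minus strand) scored 12 after the miR-342-3p mimic and 35 after the miR-342-5p mimic and had no site for either. The LOXL2 intron peak of miR-342-3p, with a score of 18, overlapped a miR-342-5p exon peak. In the other shared genes the peaks were apart. CMIP had miR-342-3p peaks with scores of 22, 37 and 17 in introns 1 and 3 and a miR-342-5p peak with a score of 44 in intron 1, each with a site of its own strand. ZGPAT, which encodes a transcriptional repressor, had an 8mer peak of each strand in intron 2, with scores of 19 and 45, and TNS3 likewise in intron 17, with scores of 18 and 11. The lists share their negative control libraries, so their overlap is not independent of these.

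Intron peaks were counted in gene groups of splicing, the E2F network, RNA silencing and the Notch pathway. Over all genes with a peak, 87 of 2385 (3.65%) had a miR-342-3p intron peak and 140 of 2399 (5.84%) a miR-342-5p intron peak. Of 48 splicing control genes, 13 had a miR-342-3p peak of any kind and 18 a miR-342-5p peak, and in introns there were 0 and 2, the latter in PTBP1 (score 15) and HNRNPM (score 13), repressors and regulators of exon use. Of 35 E2F network genes, 15 and 14 had any peak and 0 and 1 an intron peak, in E2F3 (score 11, with an 8mer). Of 13 RNA silencing genes, 3 and 5 had any peak and none an intron peak in either list. Of 20 Notch pathway genes, 8 and 10 had any peak, and 1 in each list had an intron peak, RBPJ for miR-342-3p and MAML3 for miR-342-5p. EVL, the host gene of miR-342, had no intron peak in either list. The peaks on the miR-342 hairpin lie in an annotated exon and were not counted. These intron peaks of PTBP1, HNRNPM, E2F3, RBPJ and MAML3 all had a 7mer or 8mer site of the transfected strand.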

How the data were processed

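Per the labels and the methods, the authors filtered reads (cutadapt 1.13 and UMI-tools are named in the submitters' processing notes), mapped them to hg19 with TopHat2 2.0.13 and called peaks over the negative control with MACS2 2.1.1.20160309. They deposited 1 list for each miR-342 mimic, in which the score of a peak is given as reads above background. Depth per library and the scaling between libraries are not given in the sources used here.

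Midpoints were placed on GENCODE release 44 (all transcripts, mapped to GRCh37). Exon peaks are all peaks placed in an exon. Sites were sought within 50 nt of the summit. Shares were compared by Fisher's exact tests, strands by exact McNemar tests, log2 scores and log10(distance + 1) by permutation tests with 100000 resamples, with Benjamini-Hochberg adjustment over 13 comparisons. Edits were counted with edlib 1.3.9.post1, the ribosomal reference being 10153 nt around a 5.8S-like match on an unplaced contig. Python 3.11.15, pysam 0.24.0 and scipy 1.17.1 were used. The scripts were tested on simulated data.

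The members, gene lists and tests were chosen with earlier results of these data known. Genes are named by rule: per list, the 10 highest scores, the 10 highest with a site, the 5 highest at exon borders, the 5 farthest from exons, hosts of 3 or more intron peaks, overlaps between lists, RBPJ and EVL. A host gene that the rule names is not reported here. Other names are examples of a count or are marked. Alternatives varied the annotation, placement, score, window, site type, GU length and intron length.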

Additional observations from a re-analysis of the deposited data

How the results depend on the processing

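Of 112 alternatives computed over the 13 comparisons, 93 kept the direction and the side of the 0.05 threshold. With a score above 50, which leaves 6 miR-342-3p and 9 miR-342-5p intron peaks, the intron minus exon difference in the share with a site was -24.1 (miR-342-3p) and -9.17 (miR-342-5p) percentage points, the difference between strands 0 and 22.2, the difference in sites between the lists 33.3, that in GU runs 0 between the lists and -9.07 between introns and exons, and none of these passed the threshold. The differences there in log10 distance, in log2 score for each list, in retention candidates and in hosts with an exon peak were 0.93, 0.14, 0.16, -33.3 and -8.33, with signs opposite to those above. With a score of at least 10, the differences in retention candidates and hosts were -0.595 and -0.0267 percentage points, and without peaks touching an exon the former was -0.391. These were not past the threshold in any of those settings. With basic transcripts alone, the share in introns differed by 1.16 and retention candidates by 13.5 percentage points, and with 1 peak per gene the share in introns differed by 1.61, all now past the threshold. With 1 peak per gene, retention candidates differed by -1.32 percentage points, not past the threshold. The causes were not tested. Leaving out the mimic-like and ribosomal-like intron peaks, with such exon peaks kept, was computed for 7 of the comparisons and added after seeing the data. No paired analysis was possible because the lists merge the libraries. Depth is unknown, so binding below a score of 5 is not seen.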
